A study of Mus musculus with 72 samples.

Results

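Glucocorticoids are the steroid hormones that the adrenal cortex releases under stress. They enter cells and bind the glucocorticoid receptor, the product of Nr3c1, which leaves its chaperones, moves to the nucleus and binds DNA as a dimer at paired hexamers called glucocorticoid response elements. Liver and lung both carry the receptor, and in liver it is known for driving amino acid catabolism and glucose production. A set of 10 genes of this pathway was followed here in the livers and lungs of irradiated mice. They were chosen by name from knowledge of the pathway, with earlier results of these data already known. The genes were Fkbp5, Tsc22d3, Zbtb16, Sgk1, Ddit4, Cebpd, Mt1, Mt2, Tat and the receptor gene Nr3c1. All 10 had a probe on the array, among 23787 RefSeq genes that did.

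The mice were female C57BL/6 J animals of 6 to 8 weeks that received a single whole-body X-ray dose, between 1 and 12 Gy in 5 steps, on a small animal irradiator. Controls at 0 Gy were sham irradiated, and tissue was taken after 48 h from 3 mice at each of the doses 0, 1, 2, 4, 8 and 12 Gy. Liver and lung RNA were each hybridised to 18 single-colour Agilent mRNA arrays, 36 in all. Between 46.1% and 54% of spots were well above background on the liver arrays, and between 54.1% and 64% on the lung arrays. Hepatocyte markers marked the liver arrays, where Alb, which encodes albumin, had a median log2 level of 18.65. Surfactant and club cell markers marked the lung arrays, where Sftpc, a surfactant protein of alveolar type II cells, had a median of 18.45.

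Levels below are log2 normalised probe intensities, which compare mice for 1 gene and do not rank genes. A gene is said to have risen or fallen where limma's moderated test gave a Benjamini-Hochberg adjusted p under 0.05 over all probes tested in that tissue. In bulk tissue, more RNA per cell cannot be told apart from more cells that carry the RNA.

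The promoters of 4 members are shown. Those of Sgk1 and Tsc22d3 hold the hexamer of the glucocorticoid response element, and those of Mt1 and Mt2 hold a metal motif instead. RefSeq promoter windows (GRCm38.p6) were at hand for 7 of the 10 genes, and the 250 bases before each start were searched on both strands. The hexamer AGAACA (or its complement TGTTCT) was present in 16.1% of 32851 windows. The full palindrome, made of AGAACA, 3 free bases and TGTTCT, was present in 3 windows, or 0.00913%, and 1 of them belonged to Sgk1. That window lies at chr10:21993640-21993889 on the plus strand, with the palindrome 189 to 175 bases before the start and a further hexamer 242 to 237 bases before it. Hexamers are in capitals. Sgk1 had 6 windows, and 2 others held a hexamer without the palindrome. The Tsc22d3 window, at chrX:140600523-140600772 on the minus strand, held 1 hexamer 185 to 180 bases before the start, the only hexamer in the 3 windows of that gene.
Sgk1: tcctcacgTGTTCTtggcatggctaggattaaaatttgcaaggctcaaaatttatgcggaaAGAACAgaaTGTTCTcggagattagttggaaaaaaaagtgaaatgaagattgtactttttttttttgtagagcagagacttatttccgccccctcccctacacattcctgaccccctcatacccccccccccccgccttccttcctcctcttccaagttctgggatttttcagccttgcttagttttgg
Tsc22d3: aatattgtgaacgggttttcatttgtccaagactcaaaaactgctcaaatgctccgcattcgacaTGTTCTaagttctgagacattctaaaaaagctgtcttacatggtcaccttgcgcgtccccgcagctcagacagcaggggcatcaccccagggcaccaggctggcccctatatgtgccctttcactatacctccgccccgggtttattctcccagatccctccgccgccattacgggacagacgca
The metallothionein promoters are shown for a different motif, the core of the metal response element, searched as TGCACNC or TGCGCNC on both strands and found in 21.4% of windows. The Mt2 window, at chr8:94172368-94172617 on the plus strand, held 3 cores. The window of its neighbour Mt1, at chr8:94178839-94179088 on the same strand, held 1, and neither held a hexamer. Cores are in capitals.
Mt2: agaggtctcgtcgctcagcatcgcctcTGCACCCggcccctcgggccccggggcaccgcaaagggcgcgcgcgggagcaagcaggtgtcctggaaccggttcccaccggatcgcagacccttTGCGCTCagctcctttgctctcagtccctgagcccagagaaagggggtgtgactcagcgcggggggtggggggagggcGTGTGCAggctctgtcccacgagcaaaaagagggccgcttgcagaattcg
Mt1: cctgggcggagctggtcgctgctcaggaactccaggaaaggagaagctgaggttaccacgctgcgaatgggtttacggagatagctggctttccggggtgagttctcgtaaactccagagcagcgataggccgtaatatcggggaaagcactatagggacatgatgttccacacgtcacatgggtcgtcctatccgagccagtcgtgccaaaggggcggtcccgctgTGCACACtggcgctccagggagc
The windows of Fkbp5, Ddit4 and Tat held no hexamer, and that of Ddit4 held 1 metal core. A match is a string of letters and was not tested as a binding site.

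In the liver the first rises passed the test at 4 Gy. None of the 10 genes passed at 1 Gy, where 0.0182% of 38362 probes rose and 0.0235% fell. None passed at 2 Gy either, where 0.18% of probes rose and 0.279% fell. At 4 Gy, 4 members rose and none fell, namely Ddit4, Cebpd, Tsc22d3 and Sgk1, while 1.59% of probes rose and 1.71% fell. At 8 Gy, 7 members rose, with Fkbp5, Zbtb16 and Tat added, against 4.95% of probes that rose and 4.94% that fell. At 12 Gy, 4 members rose, Cebpd, Ddit4, Fkbp5 and Tsc22d3, against 2.91% and 4.11% of probes. The median log2 fold change of the 10 genes was -0.01, 0.16, 0.61, 1.07 and 1.07 at the 5 doses in rising order, while that of all probes stayed between -0.0032 and 0.0101. Fitted across all doses, 8 of the 10 rose with dose, all but Sgk1 and Nr3c1, against 4.04% of probes that rose with dose and 5.47% that fell. Leaving out 1 mouse changed the smaller counts. At 4 Gy, 2 members passed without control mouse 11, control mouse 21, 4 Gy mouse 14 or 4 Gy mouse 24. At 12 Gy, 2 passed without control mouse 21 or 12 Gy mouse 26. With slide as a random block, 3, 6 and 4 members passed at 4, 8 and 12 Gy and 6 for the trend.

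In the lung the first rises also passed at 4 Gy. No member passed at 1 Gy, where 0.0114% of 43979 probes rose and 0.0136% fell, or at 2 Gy, where 0.1% rose and 0.45% fell. At 4 Gy, 6 members rose, Tat, Cebpd, Tsc22d3, Mt2, Ddit4 and Mt1, against 0.637% of probes that rose and 1.54% that fell. At 8 Gy, 8 members rose, Fkbp5 and Zbtb16 added, against 1.68% and 2.57% of probes. At 12 Gy, 9 members rose, every one but Nr3c1, against 13.5% of probes that rose and 7.8% that fell. The same 9 members rose with dose, against 19.6% and 11% of probes. The median over the 10 genes was -0.02, 0.21, 0.83, 1.41 and 1.31 at the 5 doses, and that of all probes rose to 0.09 at 12 Gy. At 4 Gy, 3 members passed without control mouse 11, 4 Gy mouse 14 or 4 Gy mouse 24, and 2 passed without control mouse 21. With slide as a random block, 2, 6 and 8 members passed at 4, 8 and 12 Gy and 9 for the trend, while 46, 205 and 1018 probes rose at those doses. No member fell at any dose in either tissue. In the lung every measured mouse of the group lay above all controls for 0, 4, 7, 9 and 9 members in rising order of dose, against 6.92%, 9.19%, 12%, 10.4% and 21.8% of probes. In the liver this held for 1, 0, 7, 9 and 8 members, against 7.29%, 9.3%, 17%, 16% and 14.8% of probes. Every mouse lay below all controls for 1 member, Fkbp5, in the liver at 1 and at 2 Gy, against 6.25% and 9.44% of probes. A dimmer probe of that gene gave a log2 fold change of 0.11 ± 0.23 (SE) at 2 Gy.

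**Figure D1:**
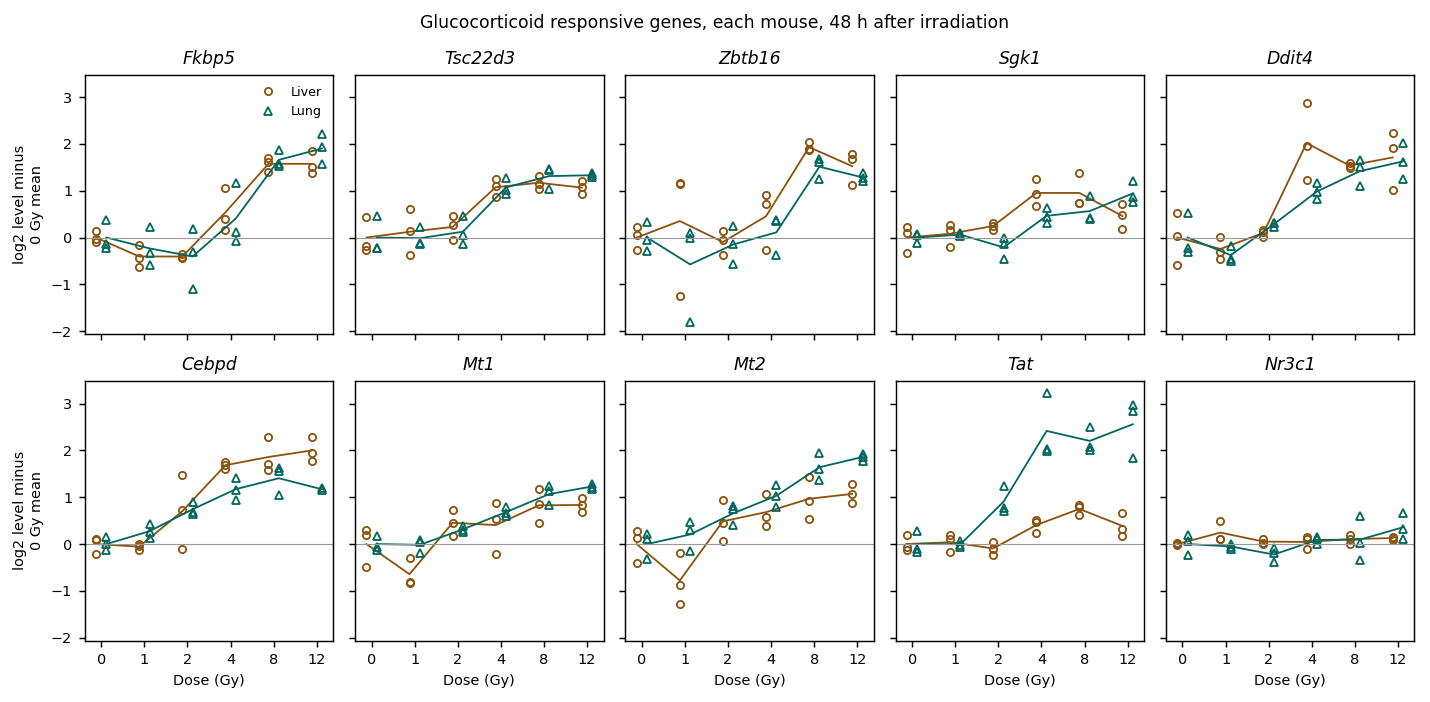
Log2 level of each gene in each mouse, minus the gene's mean at 0 Gy in that tissue, against dose in Gy, with doses evenly spaced (liver circles, lung triangles; lines join the means of 3 mice, or of 2 where a spot was missing). From 4 Gy on most genes sit above 0 in both tissues, Tat climbs further in lung than in liver, and Nr3c1 stays near 0.

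The arrays were processed on slides that did not hold all doses, and this touches every value from 2 Gy up and the comparisons of tissues. In the liver, 1 slide held the controls, all 1 Gy mice and 2 of the 2 Gy mice, while another held the remaining 2 Gy mouse with the 4 Gy and 8 Gy mice and 1 of the 12 Gy mice. In the lung, the controls shared their slide with 1 Gy only, so from 2 Gy on, dose and slide cannot be told apart against 0 Gy. With slide as a term, no member passed in the liver at any dose and none for the trend in either tissue. Over all probes, 199 rose and 151 fell with that term in the liver at 12 Gy, and 32 rose and 101 fell with dose in the lung. The liver values of Ddit4 with that term were 2.00, 1.52 and 0.98 at 4, 8 and 12 Gy and those of Fkbp5 were 0.45, 1.49 and 1.29. The liver value of Cebpd at 12 Gy was 0.61 with the slide term, and that of Mt2 was 0.18. Only the 2 Gy group was split between the slide of the controls and that of the 4 and 8 Gy mice. All these values therefore rest on the single array of 2 Gy mouse 23, and those at 12 Gy also on that of mouse 6. The fitted liver trend of Ddit4 turned slightly negative with the same term.

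Doses were also compared within slides. A single lung slide held 3 mice at 2 Gy, 3 at 4 Gy and 2 at 8 Gy, and on it all 10 genes were higher at both 4 and 8 Gy than at 2 Gy, where 54% and 53.6% of all probes were higher. None passed the test there, which 0% of probes passed as higher at 4 Gy and 0.0347% at 8 Gy. On that slide Tat was higher by 1.51 ± 0.35 (log2, SE) at 4 Gy, Tsc22d3 by 0.95 ± 0.20, Ddit4 by 0.70 ± 0.15 and Cebpd by 0.43 ± 0.19. At 8 Gy against 2 Gy, Fkbp5 was higher by 2.11 ± 0.46, Zbtb16 by 1.58 ± 0.31 and Ddit4 by 1.01 ± 0.17, the last with an adjusted p of 0.0753 in limma. The liver slide that reached from 2 to 12 Gy held a single 2 Gy mouse, so its values rest on that array. Against it 8 of the 10 genes were higher at 4 Gy, all but Mt1 at -0.33 and Mt2 at -0.27, all 10 were higher at 8 Gy, and 8 were higher in the 1 mouse at 12 Gy, again all but Mt1 and Mt2. Over all probes 52.7%, 51.3% and 47.9% were higher. On the lung slide that held 1 mouse at 8 Gy and the 3 at 12 Gy, 5 of the 10 were higher at 12 Gy, and 56.1% of all probes. None passed on these slides.

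**Figure D2:**
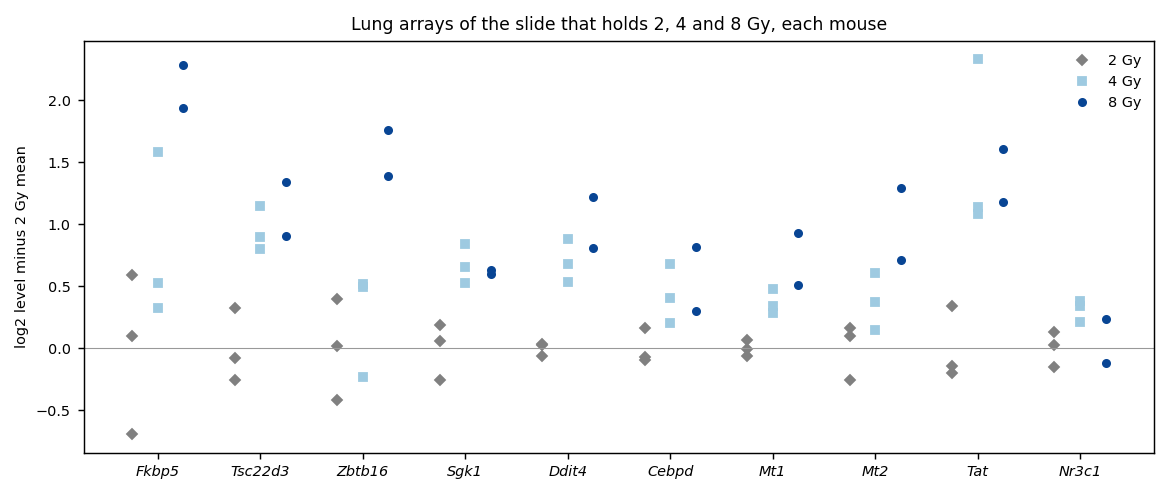
Log2 level of each gene minus its 2 Gy mean, in the 8 lung mice hybridised on the slide that held 2 Gy (diamonds, 3 mice), 4 Gy (squares, 3 mice) and 8 Gy (circles, 2 mice). Both 8 Gy mice lie above all 2 Gy mice for Fkbp5, Zbtb16, Tsc22d3 and Ddit4, whereas for Nr3c1 1 of them lies among the 2 Gy mice.

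Fkbp5 encodes a cochaperone that lowers the receptor's affinity for hormone and is itself induced by it, a negative feedback. In the liver it measured 10.69, 10.44 and 10.50 in the 3 controls. The 1 and 2 Gy mice lay below every control, at a log2 fold change of -0.40 ± 0.20 and -0.41 ± 0.20 that did not pass (adjusted p = 0.726 and 0.451, limma). The 4 Gy mice measured 11.60, 10.71 and 10.94, the 8 Gy mice 12.16, 12.25 and 11.94, and the 12 Gy mice 11.91, 12.06 and 12.38. All mice at 4, 8 and 12 Gy exceeded every control. The log2 fold change was 0.54 ± 0.20 (SE) at 4 Gy, which did not pass (adjusted p = 0.161, limma), and 1.58 ± 0.20 at 8 Gy, a 2.98-fold rise (adjusted p = 0.000381, limma). In the lung the controls measured 10.55, 9.96 and 10.04, and the 12 Gy mice 11.75, 12.40 and 12.11, a rise of 1.90 ± 0.35 (adjusted p = 0.00196, limma). At 2 Gy the lung mice measured 9.09, 9.88 and 10.37, none above the highest control. A second, dimmer Fkbp5 probe already passed at 4 Gy in both tissues, at 1.31 ± 0.23 in the liver and 1.90 ± 0.26 in the lung. At 1 and 2 Gy in the liver that probe gave -0.18 ± 0.23 and 0.11 ± 0.23, so the probes disagreed in sign at 2 Gy.

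Tsc22d3, also known as Gilz, encodes a leucine zipper protein that carries part of the hormone's anti-inflammatory action. Liver controls measured 13.10, 12.40 and 12.48 and 8 Gy mice 13.98, 13.71 and 13.80, so that the groups did not overlap. The rise was 1.08 ± 0.23 at 4 Gy, 1.17 ± 0.23 at 8 Gy and 1.07 ± 0.23 at 12 Gy. Lung controls measured 15.13, 14.45 and 14.44, and the 4 Gy mice 15.94, 15.69 and 15.60, all above the highest control. The lung rise was 1.07 ± 0.21, 1.31 ± 0.21 and 1.33 ± 0.21 at the 3 doses, the last a 2.52-fold change (adjusted p = 0.000598, limma). A second bright probe gave 0.79 ± 0.22 at 4 Gy in the liver, which did not pass, and passed in every other comparison that the first one did. The remaining probe was well above background on 1 liver array and no lung array.

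Zbtb16 encodes a zinc finger transcription factor, PLZF, that the hormone induces in many cell types. The standard errors of its dose comparisons, 0.49 in the liver and 0.39 in the lung, were the highest of the 10 genes. Liver controls measured 7.99, 8.16 and 7.68, 1 Gy mice 9.10, 6.69 and 9.09, and 8 Gy mice 9.83, 9.81 and 9.99. The 8 Gy rise was 1.93 ± 0.49 (adjusted p = 0.0247, limma), and the 12 Gy value of 1.52 ± 0.49 did not pass (adjusted p = 0.0803, limma). In the lung the 1 Gy mice measured 10.82, 9.02 and 10.92, and the lowest carried the sample number that was also lowest in the liver. The labels do not say that a number marks 1 animal. The 8 Gy lung mice measured 12.44, 12.07 and 12.51, above all controls, which reached 11.17, and the rise was 1.51 ± 0.39 (adjusted p = 0.0397, limma). The dimmer second probe passed at 8 and 12 Gy in both tissues, with 1.54 ± 0.28 and 1.07 ± 0.28 in the liver. Leaving out any 1 of the 6 mice compared ended the call at 8 Gy in the liver, with adjusted p between 0.0539 and 0.0782 in limma.

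Sgk1 and Ddit4 act on growth and ion transport, and hormone and stress both raise them. Sgk1 encodes a kinase that keeps sodium channels at the cell surface. Its liver controls measured 10.81, 11.36 and 11.22, its 4 Gy mice 11.81, 12.05 and 12.39, and its 12 Gy mice 11.61, 11.31 and 11.85. The 4 and 8 Gy mice lay above all controls, and 1 of the 12 Gy mice lay within the control range. The fold change was 0.95 ± 0.21 at both 4 and 8 Gy, which passed, and 0.46 ± 0.21 at 12 Gy, which did not (adjusted p = 0.244, limma). The 12 Gy value was not tested against the 8 Gy one. In the lung Sgk1 passed only at 12 Gy, where mice measured 14.19, 14.64 and 14.31 against controls of 13.31, 13.51 and 13.48, a rise of 0.94 ± 0.17 (adjusted p = 0.00176, limma). Ddit4 encodes REDD1, an inhibitor of the growth kinase mTORC1. Its liver controls spread from 9.52 to 10.63 and its 4 Gy mice measured 11.32, 12.05 and 12.98, a rise of 2.02 ± 0.37 or 4.05-fold (adjusted p = 0.00985, limma). In the lung it rose by 0.98 ± 0.23, 1.42 ± 0.23 and 1.63 ± 0.23 at 4, 8 and 12 Gy. The lung 12 Gy mice measured 13.48, 13.87 and 13.10 and the controls 12.38, 11.56 and 11.64.

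Cebpd encodes a transcription factor of fat cell differentiation and of the acute phase, induced by glucocorticoids and by cytokines. Liver controls measured 9.82, 9.50 and 9.79, and the 2 Gy mice 9.61, 10.42 and 11.18, so the 2 Gy group straddled the controls. At 4 Gy the mice measured 11.38, 11.46 and 11.32, a rise of 1.68 ± 0.29, and at 12 Gy the rise was 2.00 ± 0.29 or 4.00-fold (adjusted p = 0.00084, limma). Lung controls measured 13.31, 13.04 and 13.16 and the 2 Gy mice 13.82, 13.85 and 14.07, without overlap. The lung value of 0.74 ± 0.18 at 2 Gy did not pass (adjusted p = 0.102, limma) but passed under 4 of the other processing choices. The lung rise was 1.17 ± 0.18, 1.41 ± 0.18 and 1.17 ± 0.20 at 4, 8 and 12 Gy, the last from 2 mice, since the spot of mouse 16 was an outlier and was dropped.

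Mt1 and Mt2 encode metallothioneins, small cysteine-rich proteins that bind zinc and copper and are induced by metals, by cytokines and by glucocorticoids. In the liver their values at 8 Gy, 0.83 ± 0.28 for Mt1 and 0.97 ± 0.31 for Mt2, did not pass (adjusted p = 0.0794 and 0.0644, limma). The liver controls of Mt1 measured 17.42, 16.73 and 17.52 and its 12 Gy mice 17.91, 18.21 and 18.06, so the 12 Gy mice lay above all controls. Fitted across doses both genes passed in the liver, rising by 1.12 ± 0.30 and 1.41 ± 0.34 over 12 Gy. In the lung both passed at 4, 8 and 12 Gy. Lung controls of Mt2 measured 13.88, 14.00 and 13.45, the 4 Gy mice 14.58, 14.81 and 15.04, and the 12 Gy mice 15.65, 15.71 and 15.56. The Mt2 rise at 12 Gy was 1.86 ± 0.21 or 3.63-fold (adjusted p = 3.59e-05, limma), and that of Mt1 was 1.23 ± 0.14 or 2.35-fold (adjusted p = 4.56e-05, limma). No spot of a member was saturated. The pair lies side by side on chromosome 8 and the mRNAs are similar, and how far their probes cross-hybridise was not tested.

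**Figure D3:**
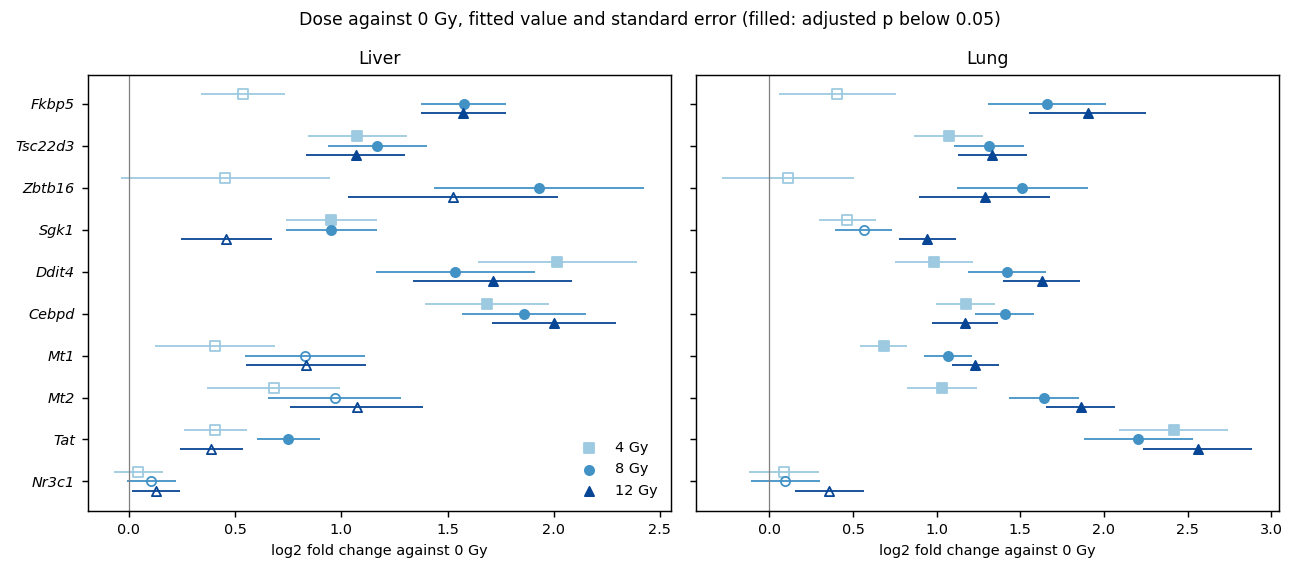
Log2 fold change of each gene against 0 Gy with its standard error, at 4 Gy (squares), 8 Gy (circles) and 12 Gy (triangles), in liver and in lung (3 mice a group, 2 for Cebpd in lung at 12 Gy). Filled symbols passed the test, and the highest lung value is that of Tat at 12 Gy, 2.56.

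Tat encodes tyrosine aminotransferase, a liver enzyme of tyrosine breakdown and the classic hormone-induced enzyme of hepatocytes. In the liver, where it is abundant, the controls measured 16.32, 16.58 and 16.26 and the 8 Gy mice 17.17, 17.01 and 17.23. That rise of 0.75 ± 0.15 or 1.68-fold passed (adjusted p = 0.00648, limma), while 4 and 12 Gy gave 0.41 ± 0.15 and 0.39 ± 0.15 and did not. In the lung the level was far lower and the change larger. Lung controls measured 7.49, 7.43 and 7.88, the 2 Gy mice 8.30, 8.36 and 8.84, the 4 Gy mice 9.64, 9.58 and 10.83, and the 12 Gy mice 9.45, 10.58 and 10.45. From 2 Gy up every lung mouse exceeded every control, and Tat was well above background on all 18 lung arrays. The lung rise was 2.42 ± 0.33 at 4 Gy or 5.34-fold (adjusted p = 0.000568, limma), 2.20 ± 0.33 at 8 Gy and 2.56 ± 0.33 at 12 Gy.

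Liver transcripts were found in the lung RNA at levels that varied from mouse to mouse. The log2 of the summed levels of 6 hepatocyte markers ranged from 11.45 to 12.56 in the lung controls, from 8.94 to 9.23 at 1 Gy, from 12.03 to 13.37 at 2 Gy, from 9.37 to 15.60 at 4 Gy, from 8.85 to 13.22 at 8 Gy and from 11.00 to 12.48 at 12 Gy, where the sum of mouse 16 lacks Alb and Ahsg because their spots were dropped as outliers. The sum of 4 Gy mouse 24 lacks Ttr for the same reason. None of the 6 passed at any lung dose. Alb measured 8.04 and 8.34 in the 4 Gy mice whose Tat was 9.64 and 9.58, and 11.85 in the control whose Tat was 7.88. The 4 Gy mouse with the most Tat, mouse 24, had an Alb level of 14.79, and without that mouse the 4 Gy rise of Tat was 2.01 ± 0.29 (adjusted p = 0.00195, limma). How far liver transcripts in the lung RNA bear on the lung values of Tat was not tested.

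**Figure D4:**
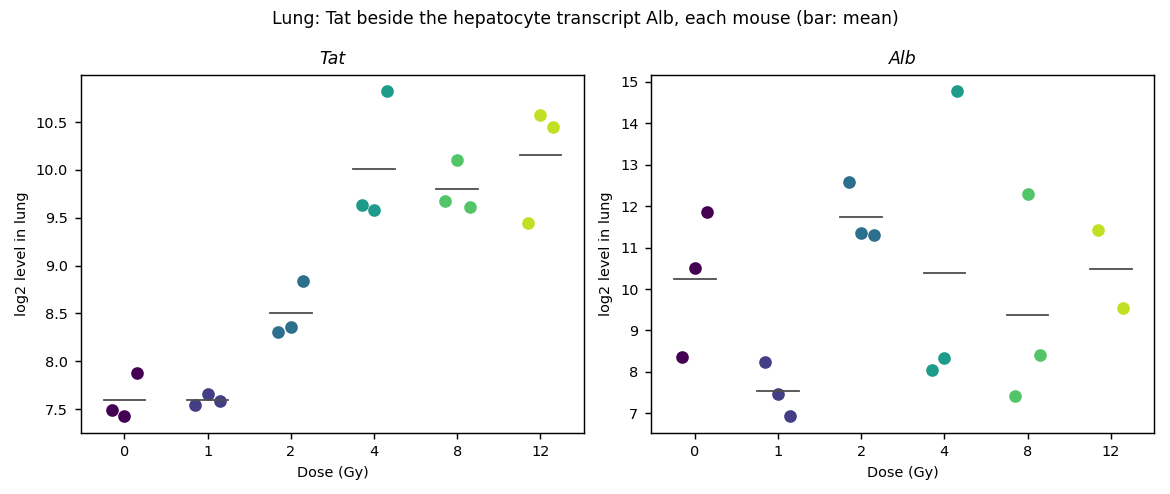
Log2 level of Tat (left) and of the hepatocyte transcript Alb (right) in each lung, against dose in Gy, with the mean as a bar (3 mice a dose, 2 for Alb at 12 Gy). Tat separates from its controls from 2 Gy on, whereas Alb spreads widely within 0, 4 and 8 Gy.

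The receptor gene Nr3c1 did not pass at any dose. Liver controls measured 12.04, 12.01 and 12.05 and the 12 Gy mice 12.17, 12.19 and 12.12, a difference of 0.13 ± 0.12 (adjusted p = 0.605, limma). Lung controls measured 13.62, 13.19 and 13.49 and the 12 Gy mice 13.54, 14.08 and 13.75, a difference of 0.36 ± 0.21 (adjusted p = 0.238, limma). The lung trend of 0.42 ± 0.17 (adjusted p = 0.064, limma) passed under 4 other processing choices and without control mouse 1 or 8 Gy mouse 15, at adjusted p between 0.0151 and 0.0485. A second Nr3c1 probe gave -0.20 ± 0.16 at 12 Gy in the lung, so the probes disagreed in sign.

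A list of 12 genes covered the receptor's chaperones and cofactors, its mineralocorticoid relative, and steroid binding and converting proteins. In the liver 11 of them were tested, and in the lung all 12. In the liver 1 rose and 2 fell at both 4 and 12 Gy, 3 rose and 1 fell at 8 Gy, and 1, Fkbp4, fell with dose. Of all liver probes, 1.59% and 2.91% rose at 4 and 12 Gy, and 1.71% and 4.11% fell. At 8 Gy 4.95% rose and 4.94% fell, and 5.47% fell with dose. In the lung none passed at 4 Gy, and 1 rose at 8 Gy, where 1.68% of probes rose. At 12 Gy 4 rose and 1 fell in the lung, where 13.5% of probes rose and 7.8% fell. With dose, 4 rose and 2 fell in the lung, against 19.6% and 11% of probes. Hsd11b1, the enzyme that regenerates active hormone from its inert form, rose by 0.77 ± 0.15 in the lung at 12 Gy (adjusted p = 0.00322, limma), and Nr3c2, the mineralocorticoid receptor, by 0.88 ± 0.18 (adjusted p = 0.00366, limma). Ncor1, a corepressor of nuclear receptors, rose by 0.64 ± 0.17. Fkbp4, the cochaperone that favours the active receptor, changed by -0.67 ± 0.16 in the liver at 12 Gy. It was also the gene that fell in the lung, at -0.55 ± 0.14, a value named after it was seen. Hsp90aa1, a chaperone that holds the receptor ready for hormone, changed by -1.12 ± 0.17 in the liver at 8 Gy (adjusted p = 0.00149, limma).

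Of 18 other genes known to respond to the hormone, 4 rose and 1 fell in the liver at 4 Gy, and 6 rose and 1 fell at both 8 and 12 Gy. Of all liver probes, 1.59%, 4.95% and 2.91% rose at 4, 8 and 12 Gy, and 1.71%, 4.94% and 4.11% fell. In the lung 4 rose at 4 Gy, 5 at 8 Gy and 12 at 12 Gy, and none fell. Of all lung probes, 0.637%, 1.68% and 13.5% rose at those doses. Their median at 12 Gy was 0.42 in the liver and 0.93 in the lung. Errfi1, a brake on the EGF receptor, rose by 1.81 ± 0.19 in the liver at 8 Gy (adjusted p = 0.000137, limma) and by 1.63 ± 0.16 in the lung at 12 Gy (adjusted p = 1.76e-05, limma). Angptl4, an inhibitor of lipoprotein lipase, rose by 1.36 ± 0.23 in the liver and 2.18 ± 0.27 in the lung at 12 Gy. Per1, a clock gene with a hormone response element, rose by 1.08 ± 0.21 in the liver at 4 Gy and 1.09 ± 0.26 in the lung at 12 Gy. Klf9, a transcription factor, passed in the lung at 12 Gy alone, with 1.09 ± 0.25, and gave 0.36 ± 0.14 in the liver. Pdk4, which spares glucose by holding back pyruvate dehydrogenase, and Igfbp1, which binds insulin-like growth factors, rose by 1.96 ± 0.49 and 2.38 ± 0.63 in the lung at 12 Gy. Igfbp1, Angptl4 and Errfi1 were lower in 0 Gy lung than in 0 Gy liver. How far liver transcripts in the lung RNA bear on their lung values was not tested. Lpin1, a phosphatidate phosphatase, rose by 1.14 ± 0.30 in the liver at 12 Gy. Bcl6, a repressor, changed by -1.40 ± 0.34 in the liver at 4 Gy, and the gene that fell there at 8 and 12 Gy, named after its values were seen, was Anxa1. In the lung both Bcl6 and Anxa1 rose at 12 Gy.

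**Figure D5:**
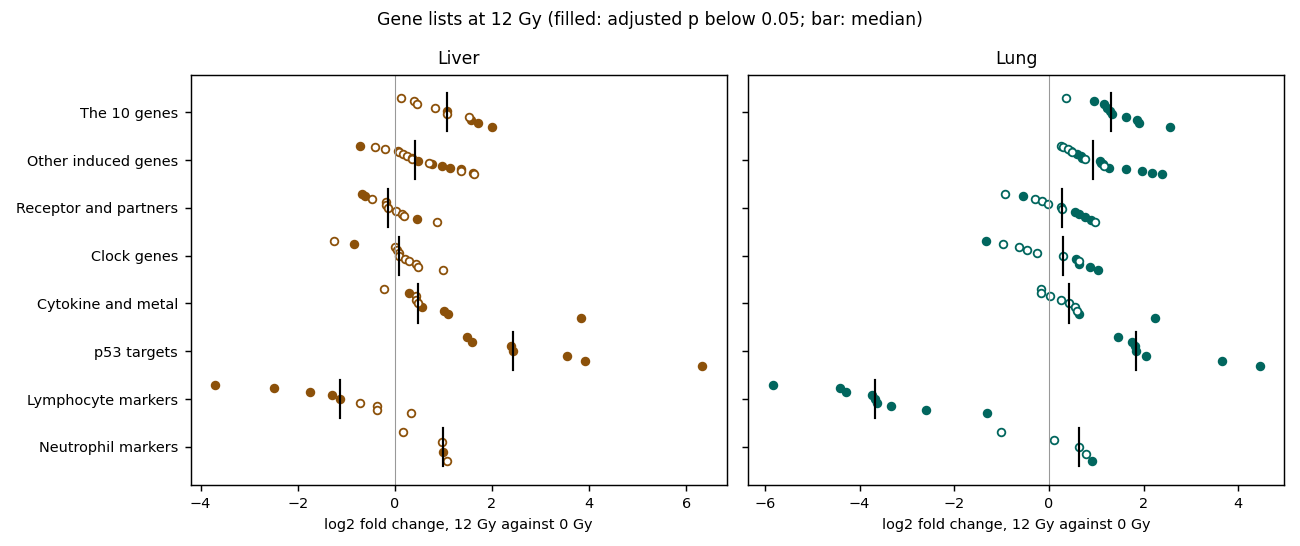
Log2 fold change at 12 Gy against 0 Gy of each tested gene in 8 lists, in liver and lung (filled symbols passed the test, bars are list medians). The 10 genes have medians of 1.07 in liver and 1.31 in lung, p53 targets lie to the right in both tissues, and lymphocyte markers lie far to the left in lung.

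Several other programmes moved over the same doses, and their part in the members' changes was not tested. The p53 target Cdkn1a, a cell cycle inhibitor, already rose at 1 Gy, by 2.58 ± 0.24 in the liver and 1.77 ± 0.20 in the lung, a dose at which no member passed. Of 9 genes of cytokine and metal responses, 5 rose in the liver at 12 Gy and 2 in the lung, against 2.91% and 13.5% of probes. Saa1, an acute phase protein, rose in the liver by 4.29 ± 0.40 at 2 Gy (adjusted p = 0.000178, limma), where no member passed, and by 3.84 ± 0.40 at 12 Gy. Lcn2, a neutrophil and liver protein that sequesters iron carriers, rose in the liver by 1.36 ± 0.27 at 8 Gy, and Cebpb, the sister factor of Cebpd, by 1.02 ± 0.19 at 12 Gy.

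Lymphocyte markers fell in both tissues. All 9 lymphocyte markers fell in the lung at 12 Gy, and 5 of 9 fell in the liver, against 7.8% and 4.11% of probes. The log2 of their summed levels ranged from 14.18 to 15.73 in the lung controls and from 11.21 to 11.51 at 12 Gy, and in the liver from 10.72 to 10.86 and from 9.55 to 9.77. Ms4a1, the B cell antigen CD20, changed by -5.84 ± 0.41 in the lung. The same sum over 5 neutrophil markers ranged from 13.47 to 14.34 in the lung controls, from 14.57 to 15.04 at 1 Gy, from 13.54 to 14.20 at 8 Gy and from 14.27 to 15.29 at 12 Gy, where S100a8 of mouse 16 was missing. In the liver it ranged from 11.19 to 11.35 in the controls and from 11.39 to 11.98 at 12 Gy. The probe of Ly6g weighed most in that liver sum, with a median log2 level of 10.82 against 9.19 for S100a9. Cxcr2 was well above background on 0 liver arrays. The liver sum thus follows mainly 1 probe and was not tested as a measure of neutrophil number. At that dose 1 neutrophil marker rose in each tissue, Retnlg in the liver and S100a9 in the lung, against 2.91% and 13.5% of probes. Retnlg was well above background on only 3 liver arrays, with a median log2 level of 4.99. With dose, 1 neutrophil marker, Ly6g, fell in the lung, against 11% of probes, and none rose. Of 11 clock genes tested, 4 rose and 1 fell in the lung at 12 Gy, where 13.5% of probes rose and 7.8% fell, with Nfil3, a repressor, at 1.04 ± 0.23 and Nr1d1 at -1.33 ± 0.28. In the liver 2 rose at 8 Gy, Ciart at 1.25 ± 0.37 and Nr1d2 at 0.50 ± 0.15, where 4.95% of probes rose. At 12 Gy 1 fell in the liver, Dbp, at -0.85 ± 0.22, where 4.11% of probes fell.

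Without irradiation the tissues gave different levels of these transcripts. The 0 Gy livers and 0 Gy lungs lay on different slides, so tissue and slide cannot be told apart there. With liver and lung arrays normalised together, all 10 differed between 0 Gy lung and 0 Gy liver, 6 higher and 4 lower in lung, against 26% of 47376 probes higher and 26.9% lower. Cebpd was higher in lung by 2.55 ± 0.23, Tsc22d3 by 1.59 ± 0.20, Sgk1 by 1.59 ± 0.19, Zbtb16 by 1.56 ± 0.45, Nr3c1 by 0.79 ± 0.18 and Ddit4 by 0.74 ± 0.30. Fkbp5 differed by -1.43 ± 0.30, Mt1 by -2.22 ± 0.18, Mt2 by -3.15 ± 0.24 and Tat by -9.49 ± 0.27. On this joint scale the Tat controls measured 16.48, 16.71 and 16.42 in the liver and 6.94, 6.88 and 7.32 in the lung. The values of Nr3c1 and Ddit4 depended on the scaling. With arrays scaled to the 75th percentile they were 0.01 and 0.40 and did not pass, and with the processed signal Nr3c1 was -0.02. In the deposited value table Tsc22d3, at 0.47, did not pass either. The dimmer Zbtb16 probe gave 0.45 ± 0.33 and did not pass. Scaling to the 75th percentile moved the median of all probes from -0.05 to -0.56, and moved the share of passing probes that were higher in lung from 49.2% to 31.9%.

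The dose trends were then compared between tissues, without slide as a term. Tat was the only member whose trend differed, steeper in the lung by 2.18 ± 0.50 over 12 Gy (adjusted p = 0.00276, limma), against 10.9% of probes with a higher and 5.54% with a lower lung trend. The other 9 did not pass. Their differences ran from -0.49 ± 0.43 for Cebpd to 0.72 ± 0.35 for Mt2, so a steeper or shallower lung trend of that size was not resolved. The second bright probe of Tsc22d3 passed, at 0.92 ± 0.30 (adjusted p = 0.03, limma), whereas the first gave 0.42 ± 0.31. Nr3c1 passed at 0.53 ± 0.19 (adjusted p = 0.049, limma) without mouse 15.

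Mice of 1 dose differed in their members' levels, and the same numbers label livers and lungs, so each liver's deviation from its dose mean was set against that of the lung with its number. Over 18 numbers, Pearson's r was 0.88 for Zbtb16 and 0.66 for Fkbp5, with exact permutation p of 0.0254 and 0.0198 that became 0.114 after adjustment over 9 genes. Spearman's rho was 0.70 and 0.64, with exact permutation p of 0.0293 and 0.021, both 0.132 adjusted. Leaving out the 2 numbers with the most extreme livers gave an r of 0.70 for Zbtb16 and 0.52 for Fkbp5. Tsc22d3 had an r of 0.59 (exact permutation p = 0.0577, adjusted 0.138) and Mt2 one of -0.58 (exact permutation p = 0.0614, adjusted 0.138). None of the 9 passed after adjustment. Cebpd was not included because of its missing lung value.

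For the member with the highest single-dose log2 fold change in each tissue, the genes with the nearest profiles were found by the root mean square difference over 18 mice, each gene set to its own control mean. In the liver that member was Ddit4, at 2.02 ± 0.37, which did not stand apart from Cebpd at 2.00 ± 0.29 beyond these errors. Mfsd2a, a lipid transporter, lay nearest at 0.47, followed by Cebpd at 0.58 and Tsc22d3 at 0.61, among 12160 genes. In the lung it was Tat, and Ces2a, a carboxylesterase, lay nearest at 0.40, followed by Ddias at 0.51 and Mybl1 at 0.53, among 13941 genes. These distances describe the 18 values and carry no test.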

How the data were processed

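Single-colour Agilent scanner intensities were deposited by the authors for each array (Agilent Feature Extraction, per the labels), together with a table of processed signal values that was used as an alternative. From the deposited intensity files, median spot intensities were background corrected (limma 3.58.1, R 4.3.3, normexp, offset 0), control spots were dropped, outlier spots were set missing, and the 18 arrays of a tissue were quantile normalised and taken to log2. Spots of a probe were averaged. The tests covered 38362 liver and 43979 lung probes, those that 1 or more arrays measured well above background. Probes were named through RefSeq accessions, which matched 34566 of 56605. Each gene is given by its brightest probe. Of each other list, the text names in each tissue at most 4 genes with the largest change, plus Per1, Klf9 and Cdkn1a. Genes outside this rule were named after their values were seen, or to give marker levels and missing spots. Dose groups were compared with 0 Gy, a linear dose term gave the trend over 12 Gy, and all 36 arrays, normalised together, gave the comparisons of tissues. The members and gene lists were chosen with earlier results of these data known. Precision is limited by 3 mice a group. The fits were tested on simulated data that held no slide effect, so that test says nothing about slides. The miRNA arrays were not used here.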

Additional observations from a re-analysis of the deposited data

Results flagged for a closer look

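The dose trend of Tat differed between tissues. It was steeper in lung than in liver by 2.18 (log2 over 12 Gy), by a test of the difference itself in limma (adjusted p = 0.00276), and ranged from 1.81 to 2.13 under other background corrections, scalings and the deposited value table. Slide was not a term in that test. Hepatocyte transcripts varied among the lungs, as described with the lung values of Tat, and their part in this difference was not tested.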

How the results depend on the processing

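With slide as a term, 0 members passed in the liver at 4, 8 and 12 Gy, and 0 for the dose trend in liver and in lung, where the liver trend of Ddit4 turned to -0.0186. In the lung, 2 to 12 Gy against 0 Gy could not be fitted with that term. With slide as a random block, 2 members passed in the lung at 4 Gy, and of 55 member results that passed without it, 44 still did. At 2 Gy in the lung, 1 member, Cebpd, passed with normexp offset 50, with the processed signal, with the deposited value table and with liver and lung normalised together. Nr3c1 at 0 Gy, lung against liver, turned to -0.0152 with the processed signal and -0.129 with the deposited table. Over the 66 member results that passed, 66 passed in the same direction with offset 50, 63 when scaled to the 75th percentile, 61 with the processed signal, 58 with the deposited table and 63 without the filter on dim probes. Leaving out 1 mouse at a time left 2 to 4 members passing at 4 Gy, 5 to 6 at 8 Gy and 2 to 4 at 12 Gy in the liver, and 2 to 6, 6 to 8 and 8 to 9 in the lung. It left 7 to 8 for the liver trend, 9 to 10 for the lung trend, 1 to 2 for the difference of trends, 9 to 10 for 0 Gy lung against liver, and 0 to 0 at 1 and 2 Gy in both tissues.

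Sample numbers are shared between liver and lung, but the labels do not say that a number marks 1 animal. Over 31718 probes the deviations of same-numbered samples correlated at -0.06 to 0.10, with 1 of 18 pairs above 0.1, and 7 of 18 livers correlated best with their own number within their dose. With the number as a replicate block, 1 member passed for the difference of trends and 10 for 0 Gy lung against liver, and no call changed.

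Some single calls ended without 1 mouse. In the liver these were Zbtb16 at 8 Gy (any of the 6 mice, adjusted p 0.0539 to 0.0782), Sgk1 at 4 Gy (without controls 1, 11 or 21, or 4 Gy mice 14 or 24, 0.0549 to 0.12) and at 8 Gy (control 1, 0.06), Tsc22d3 at 4 Gy (controls 11 or 21, mice 14 or 24, 0.0731 to 0.108) and 12 Gy (controls 11 or 21, mouse 26, 0.0507 to 0.0645), Ddit4 at 8 Gy (controls 11 or 21, mouse 15, 0.0529 to 0.0813) and 12 Gy (control 21, mice 16 or 26, 0.0501 to 0.0566), and the Tat trend (mice 1, 21, 12, 15 or 26, 0.0518 to 0.0669). In the lung they were Ddit4 at 4 Gy (all but control 1, 0.0557 to 0.152), Mt1 at 4 Gy (controls 11 or 21, mice 14 or 24, 0.0557 to 0.0891), Mt2 at 4 Gy (control 21, mice 14 or 24, 0.0543 to 0.0825), Tsc22d3 at 4 Gy (controls 11 or 21, 0.0512 to 0.0616), Fkbp5 at 8 Gy (control 21, 0.0524), and Zbtb16 at 8 Gy (all but control 1, 0.0618 to 0.13) and 12 Gy (all but control 1, 0.0531 to 0.0989). Ddit4 at 0 Gy, lung against liver, ended without numbers 1 or 21 (0.0951 and 0.179). Scaling to the 75th percentile moved the median of all probes in lung at 12 Gy to 0.25 and the share of passing probes that rose from 63.4% to 75.7%, and for the lung trend from 64.1% to 76.1%, and for liver at 8 Gy from 50% to 65.5%.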
